A study of Mus musculus with 8 samples.

Results

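The genes described here are 9 mouse genes reported in the literature as targets of the microRNAs miR-193b or miR-365: Runx1t1, Cdon, Igfbp5, Ywhaz, Plau, Hdac4, Nf1, Mcl1 and Ccnd1. They were matched by symbol to a list drawn from the literature when earlier results of these data were known, and all 9 were among the 22552 genes of the mRNA table. Brown adipose tissue, a fat that makes heat, was taken at 2 months of age from wild-type mice (mmu-mir-193b +/+, WT) and from mice lacking mir-193b and its cluster partner mir-365-1 (mmu-mir-193b -/-, Null), all on a 129SV, FVB/N and C57BL/6 mix. Poly(A) RNA was sequenced from 3 WT and 3 Null samples and small RNA from 1 WT and 1 Null sample. The floxed allele was recombined through female mice carrying MMTV-Cre, a transgene driven by a mammary tumour virus promoter, and the transgene was segregated out in the next cross. The labels give neither the sex of the profiled mice nor the number of founder lines.

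The authors deposited mRNA levels as FPKM (fragments scaled by transcript length and by library size) with 1 column per genotype, so that the 3 libraries of a genotype stand behind a single combined value, called the WT pool or the Null pool. A combined value carries no SD, no n and no test, so no difference between the pools could be set against the spread of replicates. How deeply the mRNA libraries were sequenced is unknown. The tissue label was matched by high fat cell markers in both pools: Ucp1 stood at 3016 FPKM in WT against 2487 FPKM in Null, and Fabp4 at 27295 and 34679 FPKM. Both are from a list of 10 brown adipocyte markers that did not share a direction, as given below. Skeletal muscle fibre markers were present too, with Acta1 at 647 and 320 FPKM. Since whole tissue was sequenced, fewer cells of a type and less RNA per cell cannot be told apart in any value below.

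A microRNA guides the silencing complex to messenger RNAs that pair with its seed, bases 2 to 8 from the 5′ end, and the bound mRNA is repressed in translation, destabilised, or both. Loss of a microRNA can therefore leave a target's mRNA level as it was even where its protein changes, and protein was not measured here. miR-193b and miR-365 are known from brown fat cell culture as microRNAs that favour the brown fat programme and restrain the myogenic one, with Runx1t1 as a reported target in preadipocytes and Cdon and Igfbp5 in muscle precursor cells. Plau, Mcl1 and Ccnd1 are better known as miR-193b targets in tumour cells, and Hdac4 as a miR-365 target in cartilage.

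The mature sequences show what was deleted and what the genome still encodes. They are printed 5′ to 3′ from RefSeq (build GRCm38.p6), with the seed in capitals.
miR-193b-3p: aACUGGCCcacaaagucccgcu
miR-193a-3p: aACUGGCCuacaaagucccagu
miR-365-3p: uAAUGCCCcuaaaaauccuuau
miR-365-1-5p: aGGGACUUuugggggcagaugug
miR-365-2-5p: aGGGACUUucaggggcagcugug
miR-193b-3p comes from the deleted cluster, at chr16:13449570-13449591 on the plus strand. miR-193a-3p comes from chr11:79712009-79712030 on the plus strand. These 22-base strands have the same seed and differ at 3 positions counted from the 5′ end, C9U, G20A and C21G from miR-193b-3p to miR-193a-3p. miR-365-3p is encoded identically at chr16:13453895-13453916, beside mir-193b, and at chr11:79726467-79726488, beside mir-193a. The copies are told apart by their 5p strands, shown last, which differ by U10C, G11A and A19C from miR-365-1-5p to miR-365-2-5p. Among the mature mouse microRNAs of the RefSeq table, 2 carry the seed ACUGGCC and 1 carries AAUGCCC, and the mRNA letters that pair with these seeds are GGCCAGU and GGGCAUU. The chromosome 11 copies also share a chromosome with a listed target, Nf1. In the RefSeq order of gene starts Mir193a is the 16th gene to start after Nf1 and Mir365-2 the 17th. Of the genes that start between Nf1 and either of them, 5 are protein-coding. Gene ends and distances were not used, so genes lying within Nf1 would be counted too.

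The amount of each seed that remained was read from the microRNA table, whose values the authors head RPM (reads scaled to a library total). miR-193b-3p stood at 3705 RPM in the WT library and 11.5 RPM in the Null library, and miR-193a-3p at 3857 and 4067 RPM. miR-193b-3p thus made up 49.0% of the summed seed in WT and 0.283% in Null. The sum over both strands with the seed ACUGGCC was 7561 RPM in WT against 4078 RPM in Null, a ratio of 0.539 with a 95% exact Clopper-Pearson interval of 0.535 to 0.544. For AAUGCCC, miR-365-3p alone, the ratio was 0.553 (0.543 to 0.563), from 1442 to 798 RPM. The Null library therefore held more than 50% of the WT level of either 3p seed in deposited RPM. The 5p strands were far scarcer: WT and Null values were 37.9 and 0.0821 RPM for miR-193b-5p. miR-365-1-5p stood at 11.8 against 0.0821 RPM, and miR-365-2-5p, which shares its seed, at 9.37 against 17.9 RPM. With ratios divided by the median ratio of the 323 microRNAs that averaged at least 10 RPM, which was 1.13, the 3p seed ratios were 0.477 and 0.489. These intervals cover counting error in 1 library per genotype only, and reads without molecular identifiers are not independent molecules.

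**Figure D1:**
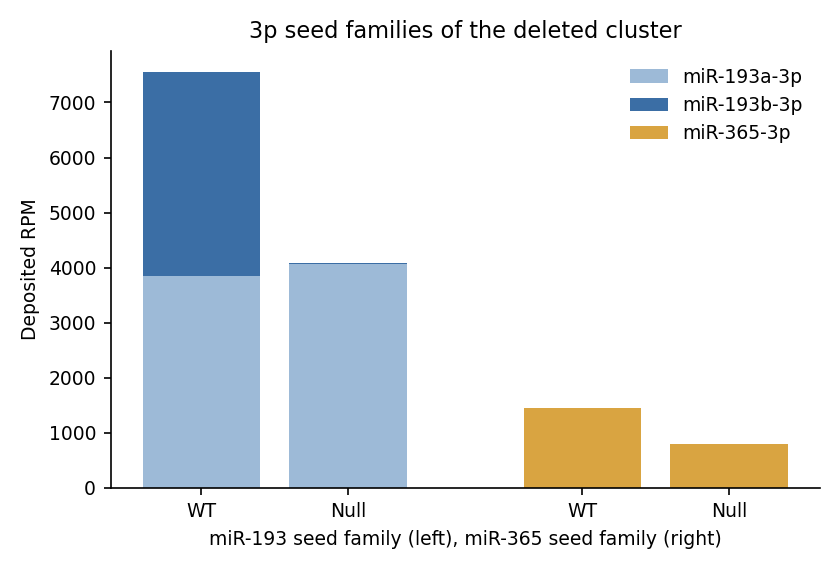
Deposited RPM (y axis, linear) of the mature microRNAs that carry the 3p seeds of the deleted cluster, in the WT and the Null library. miR-193b-3p is stacked on miR-193a-3p, and its part of the left pair is near 0 in Null, where miR-193a-3p alone gives 4067 of 4078 RPM.

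The question put to the mRNA table was whether each reported target stood higher without the cluster. FPKM was higher in the Null pool for 3 of the 9 genes (Ywhaz, Plau and Ccnd1) and lower for 6 (Runx1t1, Cdon, Igfbp5, Hdac4, Nf1 and Mcl1). Differences were measured as log2((Null + 1)/(WT + 1)) of FPKM, a scale that understates the change of low genes, for the 8 members with a mean of at least 1 FPKM over both pools. Runx1t1, with a mean of 0.259 FPKM, was below that level, and Hdac4 passed it only through its WT value. By 1.5-fold or more on this scale, 2 of the 8 were higher in Null (Ywhaz and Plau), against 7.87% of the 11597 genes with that mean. Nf1 was lower by 1.5-fold or more, as were 6.75% of those genes, and 4 members lay within 1.5-fold. Hdac4 was lower too, but since it was measured only through its high WT value its difference is given as a value and nothing is read from a count that holds it. At any size 3 of the 8 were higher and 5 lower, Hdac4 included, beside 50.6% and 49.4% of all genes. The median log2 ratio of the 8, also with Hdac4, was -0.13, beside 0.01 over the 11597 genes. Nothing is read from these counts or this median. Cdon lay just inside the 1.5-fold limit at 1.45-fold and Plau just outside at 1.57-fold.

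**Figure D2:**
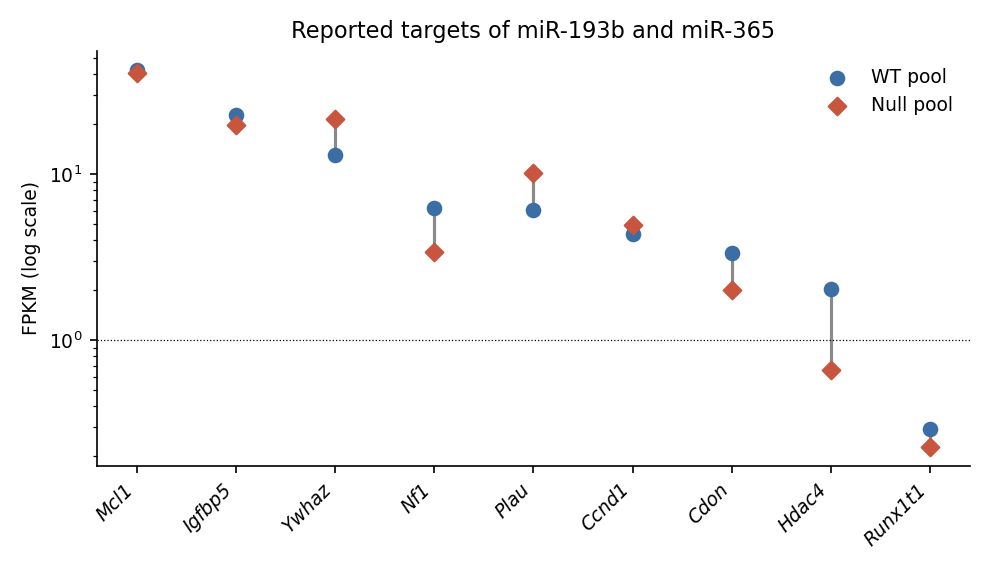
FPKM (y axis, log scale) of the 9 reported targets in the WT pool (circles) and the Null pool (diamonds), ordered by WT level, with 1 combined value per genotype and no error bars. The dotted line is at 1 FPKM. Ywhaz, Plau and Ccnd1 have the diamond above the circle, the other genes below it, and the longest span is that of Hdac4, from 2.04 to 0.658 FPKM.

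Each member was also set against the 500 other genes nearest to it in level, with small RNA genes left out. Of the 8 members, 3 lay above the median of their neighbours and 5 below, Hdac4 included. Ywhaz and Plau lay above the 10th to 90th percentile of their neighbours, and Cdon and Nf1 below it. Hdac4 was also below it, with the limit just named. These places describe single genes in 2 pools and are not tests.

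**Figure D3:**
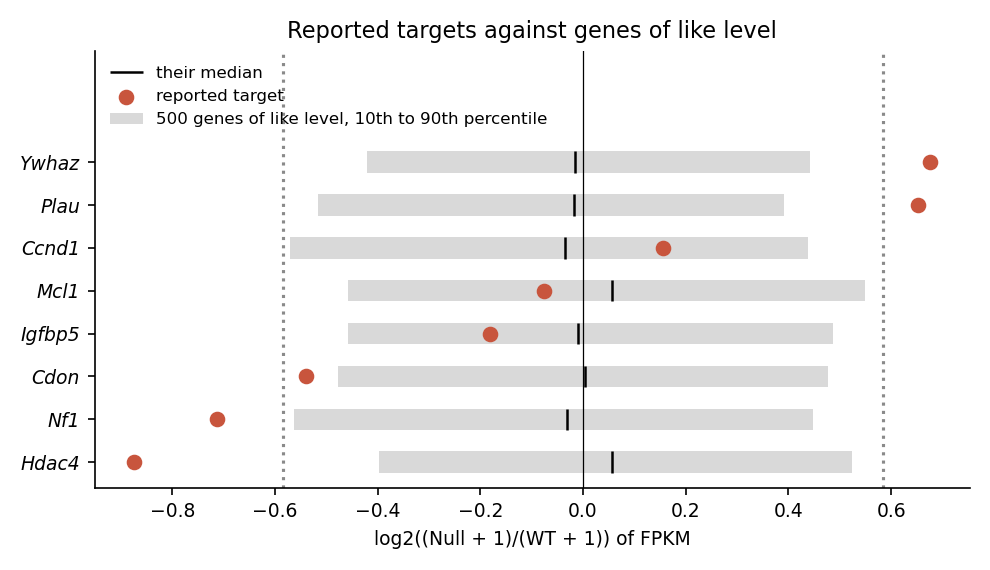
The log2 ratio of Null to WT FPKM with a pseudocount of 1 (x axis) for the 8 reported targets with a mean of at least 1 FPKM (points). Grey bars span the 10th to 90th percentile of the 500 genes nearest in level, black ticks mark their median, and dotted lines mark 1.5-fold. Ywhaz and Plau lie right of their bars and Cdon, Nf1 and Hdac4 left of theirs.

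The targets at the cell surface and outside the cell did not share a direction. Plau encodes urokinase, the protease that activates plasminogen. It stood at 6.09 FPKM in the WT pool and 10.1 FPKM in the Null pool, a log2 ratio of 0.65 at percentile 96.6 of its neighbours, whose median was -0.02. Of these neighbours 4.80% were higher by 1.5-fold or more. The rest of the plasminogen system was closer to even: all 6 measured companions lay within 1.5-fold, with a median of 0.11. The urokinase receptor Plaur was at 1.92 and 1.96 FPKM, the tissue-type activator Plat at 3.11 and 3.42 FPKM, and the inhibitor Serpine2 had the highest ratio of the list at 0.24. Plau made up 66.2% of the summed FPKM of both plasminogen activators in WT and 74.8% in Null. Plg, the liver-made substrate plasminogen, was at 0.0127 FPKM in WT with a listed 0 in Null, and Serpinb2 was listed at 0 in both.

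Cdon is a membrane co-receptor for hedgehog ligands that also promotes muscle differentiation. It was at 3.36 FPKM in WT against 2.00 FPKM in Null, a plain ratio of 0.595 and a log2 ratio of -0.54 at percentile 7.80 of genes of like level. With a pseudocount of 0.1 FPKM its ratio was -0.72, past 1.5-fold. The companion list held hedgehog genes and the Cdon-binding proteins Neo1 (-0.45) and Cdh2 (-0.05). Its median was -0.30, with 5 of 7 measured genes lower, beside 49.4% of all genes. The receptor Ptch1, itself a target of the pathway, was past 1.5-fold at 3.54 and 1.67 FPKM (-0.77). The effectors were all below 1 FPKM and did not share a direction: Gli1 was at 0.311 and 0.495 FPKM, Gli2 at 0.280 and 0.145 FPKM and Gli3 at 0.181 and 0.273 FPKM. The co-receptors that act beside Cdon did not follow it: Boc was at 1.25 and 1.44 FPKM and Gas1, the highest of the list, at 19.9 and 25.8 FPKM (0.36). Cdon therefore made up 13.7% of the summed FPKM of the 3 co-receptors in WT and 6.84% in Null.

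Igfbp5, a secreted protein that binds insulin-like growth factors, was the second most abundant reported target in WT at 22.7 FPKM, and stood at 19.9 FPKM in Null. Its log2 ratio of -0.18 lay at percentile 30.0 of its neighbours, well inside their spread. In its pathway the ligand Igf1 was at 7.84 and 16.5 FPKM (0.99), the highest of the 9 measured companions, while the receptor Igf1r was at 1.57 and 1.30 FPKM and Igf2r was lowest at -0.27. Igfbp7 was the other companion past 1.5-fold, at 74.2 and 123 FPKM (0.72). Igfbp5 accordingly gave 14.1% of the summed FPKM of 7 IGF-binding protein genes in WT and 9.60% in Null, where its own level differed less than that of Igfbp7. Igfbp1 was listed at 0 in both pools.

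Cdon and Igfbp5 are also expressed in muscle and in stromal cells, and both kinds of marker differed between the pools. Of 15 skeletal muscle fibre markers 14 were lower in Null, beside 49.4% of all genes. By 1.5-fold or more 11 of them were lower, beside 6.75% of all genes. Their median was -1.01, with Myh2 lowest (-1.86) and Mylpf highest (0.09), and their summed level went from 3567 to 2483 FPKM. Of 10 measured fibroblast and preadipocyte markers 8 were higher, beside 50.6% of all genes. Their median was 0.45, with Col3a1 highest (1.14) and Pi16 lowest (-0.91), and the summed level of all 12 listed went from 375 to 579 FPKM. Macrophage markers were higher in 7 of 8 cases, beside the same 50.6% of all genes. Their median was 0.66, from Csf1r at -0.01 to Aif1 at 1.04, and their sum went from 103 to 158 FPKM. Endothelial markers had a median of 0.04 (Flt1 -0.41, Emcn 0.48), Schwann cell markers of -0.34 over 4 measured (S100b highest at 0.44) and brown adipocyte markers of -0.14 over 10 (Elovl3 -2.27, Adipoq 0.71). None of these markers was at 0. Their part in the values of Cdon, Igfbp5 and the other targets was not tested.

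Among signalling proteins of the cytoplasm, Ywhaz and Nf1 lay on opposite sides. Ywhaz encodes 14-3-3 zeta, an adaptor that binds phosphorylated proteins. It was at 13.1 FPKM in WT against 21.5 FPKM in Null, a log2 ratio of 0.68 at percentile 96.0 of its neighbours. That was the highest of the reported targets with a pseudocount of 1 FPKM, but Plau had the higher plain ratio, 1.67 against 1.64. Within the 14-3-3 family Ywhaq was alike at 23.6 and 38.0 FPKM (0.67), Ywhag was lowest at 278 and 202 FPKM (-0.46), and the median of the 5 measured companions was 0.04. Ywhaz was a minor member of the family by this table, at 1.84% of its summed FPKM in WT and 3.31% in Null. The 14-3-3 genes share sequence with each other and with pseudogene copies, so the split of fragments between them is uncertain.

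Nf1 encodes neurofibromin, which switches Ras off by speeding its GTP hydrolysis. It stood at 6.22 FPKM in WT against 3.41 FPKM in Null, a log2 ratio of -0.71 at percentile 6.00 of its neighbours. The neighbours were alike in level only and were not matched for mRNA length, whose part in this value was not tested. The companion list of Ras regulators holds GTPase-activating proteins, Spred proteins and the exchange factors Sos1 and Sos2 that switch Ras on. In it 8 of 9 measured genes were lower, beside 49.4% of all genes, with a median of -0.31 and none past 1.5-fold. Sos1 was at -0.27 and Sos2 at -0.35. Spred2, a membrane partner that recruits neurofibromin, was lowest at 6.82 and 4.26 FPKM (-0.57), and Rasal2 was highest at 2.33 and 3.08 FPKM (0.29). Rasal1 was at 0.0127 FPKM in WT with a listed 0 in Null.

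The targets that govern survival and division differed little. Mcl1, an antiapoptotic BCL2 relative, was the most abundant reported target at 42.6 FPKM in WT against 40.4 FPKM in Null, a log2 ratio of -0.08 at percentile 37.8 of its neighbours. It made up 46.3% of the summed FPKM of Mcl1, Bcl2, Bcl2l1 and Bcl2l2 in WT and 49.0% in Null. In the BCL2 family 3 of 10 measured companions were higher by 1.5-fold or more, against 7.87% of all genes. All of them promote cell death or are related to genes that do: Bok at 3.66 and 7.64 FPKM (0.89), Bid at 1.49 and 3.35 FPKM (0.80) and Bax at 21.3 and 36.6 FPKM (0.75). At any size 6 of the 10 were higher and 4 lower. The lower ones included Bak1 at 17.9 and 13.7 FPKM (-0.36) and Bbc3 at 7.14 and 5.97 FPKM (-0.22), which also promote cell death. The prosurvival gene Bcl2l2 was lowest (-0.39), and the family median was 0.10.

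Ccnd1, the cyclin D1 gene that drives cells through G1, was at 4.35 FPKM in WT against 4.96 FPKM in Null, a log2 ratio of 0.16 at percentile 72.6 of its neighbours. Scaling both columns to the same sum turned it to -0.02. Among the D cyclins Ccnd3 was the most abundant at 27.3 and 26.7 FPKM, and Ccnd1 made up 11.2% of their sum in WT and 13.5% in Null. The 11 measured cell cycle companions had a median of -0.03, from the kinase Cdk6 at -0.53 to the inhibitor Cdkn2c at 0.99. Cdkn2c stood at 70.1 and 140 FPKM, and the inhibitor Cdkn1b was also past 1.5-fold at 16.8 and 28.0 FPKM (0.70). Mki67, a marker of dividing cells, was at 0.178 and 0.216 FPKM.

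The repressors of transcription were the lowest of the reported targets in level. Runx1t1 encodes a corepressor of the MTG family and is the target described for brown preadipocytes. It was at 0.291 FPKM in WT, where 13161 genes stood higher, and 0.227 FPKM in Null, a plain ratio of 0.782. Its log2 ratio was -0.07 with a pseudocount of 1 FPKM and -0.26 with 0.1 FPKM. Among the 500 genes nearest to it when no minimum was set, it lay at percentile 28.4. Its relatives were more abundant and not higher in Null: Cbfa2t2 was at 4.48 and 3.19 FPKM (-0.39) and Cbfa2t3 at 7.69 and 3.14 FPKM (-1.07), the lowest of the 8 corepressor genes. The histone deacetylase Hdac3, which these corepressors recruit, was highest at 39.8 and 50.3 FPKM (0.33).

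Hdac4 encodes a class IIa histone deacetylase that holds Mef2 factors in check. It was at 2.04 FPKM in WT against 0.658 FPKM in Null, a plain ratio of 0.323. Its log2 ratio of -0.87, and -1.50 with a pseudocount of 0.1 FPKM, was the lowest of the reported targets. Its Null value alone is below the 1 FPKM minimum, so its place among its neighbours rests on how the filter let it in. The other class II enzymes were nearer to even, Hdac5 at 30.5 and 25.3 FPKM (-0.26), Hdac7 at 11.9 and 12.4 FPKM (0.06) and Hdac10, highest of the list, at 7.86 and 8.28 FPKM (0.07). Hdac4 made up 4.50% of the summed FPKM of the 4 class IIa enzymes in WT and 1.68% in Null. Of the Mef2 partners, which are muscle and heart regulators expressed in other tissues too, Mef2d (40.1 and 19.0 FPKM, -1.04) and Mef2a (18.0 and 10.9 FPKM, -0.68) were lower by 1.5-fold or more, whereas Mef2c was at 7.47 and 7.77 FPKM. The muscle fibre markers were also lower, as given above, and their part in the values of Hdac4 and the Mef2 genes was not tested.

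**Figure D4:**
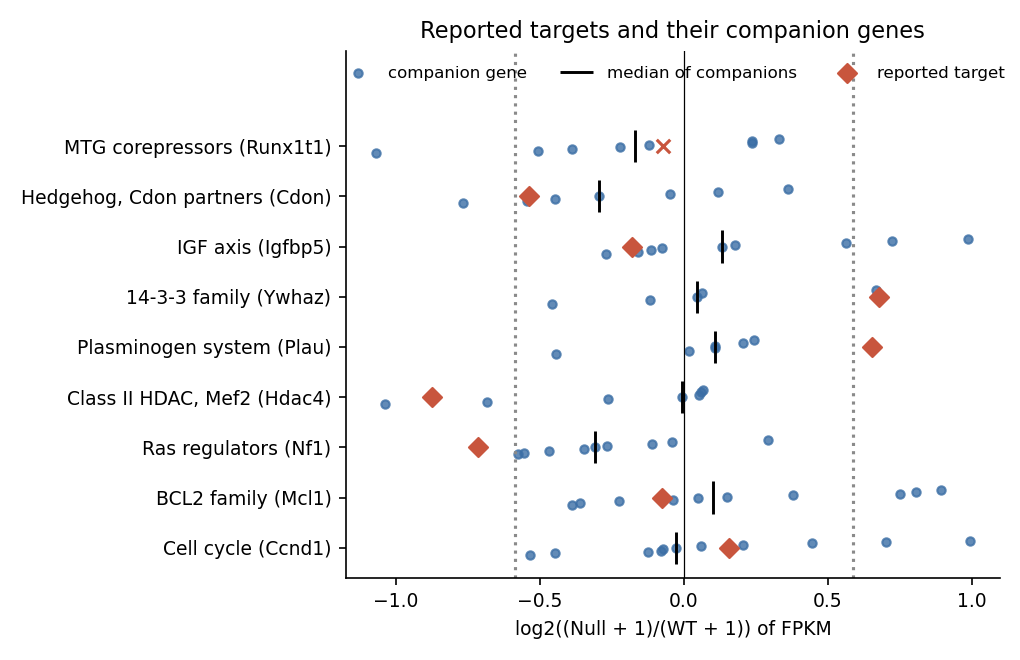
The log2 ratio of Null to WT FPKM with a pseudocount of 1 (x axis) for each reported target (diamond, or a cross for Runx1t1, which is below 1 FPKM) and the companion genes of its pathway with a mean of at least 1 FPKM (dots). Black bars are the medians of the companions without the target and dotted lines mark 1.5-fold. Plau and Ywhaz lie right of all of their companions, and Nf1 lies left of all of its companions.

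Genes of very large proteins and genes of cytosolic ribosomal proteins also differed between these pools. Neither list stands for all long or all short mRNAs. Of 27 genes of very large proteins, assigned long mRNAs from general knowledge, 26 were lower in Null with a median of -0.47, beside 49.4% of all genes. By 1.5-fold or more 7 of the 27 were lower, beside 6.75% of all genes. That list was chosen after values had been seen, so its counts are descriptions only. Of 69 cytosolic ribosomal protein genes, whose mRNAs are short, 64 were higher with a median of 0.90, beside 50.6% of all genes. Lengths were not measured here, and the part of mRNA length in the values of the reported targets was not tested. With both columns scaled to the same sum the median of all genes moved from 0.01 to -0.18. Relative to that shift Ywhaz was at 0.65, Plau at 0.64, Ccnd1 at 0.16, Cdon at -0.51, Nf1 at -0.71 and Hdac4 at -0.81. Runx1t1 was at 0.06 relative to that shift, but its own ratio after scaling was -0.12 and so still below 0. The shift is a median over genes of at least 1 FPKM. Runx1t1 is below that level, where a pseudocount of 1 FPKM damps the move, so no change of direction is read from its 0.06. The same scaling took the medians of the IGF, plasminogen, 14-3-3, BCL2 and endothelial lists below 0, to -0.07, -0.06, -0.16, -0.02 and -0.17, all at or above that shift. Quantile normalization of the columns also took the 14-3-3 median to -0.11 and the endothelial median to -0.02, and turned the median of the list of class II histone deacetylases and Mef2 factors from -0.01 to 0.04. The signs of the other list medians held under both.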

How the data were processed

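Samples were grouped by the genotype in their titles. The members and gene lists were chosen with earlier results of these data known, and 1 gene of the original list and some genes of the companion and marker lists are not reported here. The authors deposited FPKM per gene in a WT and a Null column, per the file headers. Whether these pool or average the libraries is not given in the sources used here, nor are tool versions or the annotation. The submitters' processing notes name mm9 and, with no roles, DESeq, edgeR, BWA, TopHat and CASAVA. The microRNA values are a signal headed RPM, per the file headers. They sum to 1559381 in WT and 1578515 in Null, so they are not shares of their own sum. All values were whole multiples of 1 step per library (0.0438 and 0.0411 RPM, within 0.01 step), and the reads these steps imply gave the intervals. The authors' deposited ratio, p-value and adjusted p-value columns were not used, nor was their mean signal.

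Ratios were computed with Python 3.11.15, numpy 2.4.6, pandas 2.3.3 and scipy 1.17.1, with a pseudocount of 1 FPKM and a mean of at least 1 FPKM. The design fixed values without tests. Level was the mean of log2(FPKM + 1) over both pools. With 1 combined value per genotype, the reliability of calls near the 1.5-fold limit was not tested. All targets were named. Of each companion or marker list the rule named the highest and lowest gene, genes past 1.5-fold where 5 or fewer, and genes at 0. Other named companions and the list of large proteins were chosen after their values were seen. Sequences were matched by microRNA name, and no transcript sequences or protein lengths were used here, so target sites were not searched.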

Additional observations from a re-analysis of the deposited data

How the results depend on the processing

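No paired analysis was possible because each genotype has a single combined column, and for the same reason no replicate could be left out. The comparison with genes alike in protein length was not run, since no lengths were at hand. The number of targets higher by 1.5-fold or more stayed at 2 with a pseudocount of 0.1 FPKM, without a filter, with a mean of at least 5 FPKM, with quantile normalization and with centred ratios. It was 0 with both columns scaled to the same sum and 0 at a limit of 2-fold. The number lower, Hdac4 included, was 2 and became 3 with a pseudocount of 0.1 FPKM and 3 with the same sum, where Cdon passed the limit. It was 0 at 2-fold, and 0 with a mean of at least 5 FPKM, which keeps 4 targets. The median of -0.13 was 0.29 over those 4 targets and -0.34 with the same sum. With the same sum 469 of all genes were higher by 1.5-fold and 1621 lower, against 913 and 783. There Ywhaz was at 0.47 and Plau at 0.46, under the limit. The number above the median of like genes was 3 with 200, 500 or 1000 neighbours, with a pseudocount of 0.1 FPKM, without a filter and under both scalings, and 2 of 4 with a mean of at least 5 FPKM. Over 5 settings each, no target but Ccnd1 changed sign. Among these settings the 2-fold limit left the ratios as they were and centring moved them by only 0.0056, so neither could change a sign. The seed ratio of 0.539 for miR-193 was 0.533 when scaled to the sum of all listed microRNAs and 0.477 when centred on their median. The ratio of 0.553 for miR-365 was 0.546 and 0.489. Apart from the smaller number of targets kept and the higher limit, the cause was not tested. With the mRNA depth unknown, no precision can be given for low genes such as Runx1t1 and Hdac4.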
